A study of Mus musculus with 6 samples.

Results

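Circular RNAs (circRNAs) form when the spliceosome joins a downstream donor site back to an upstream acceptor, so that the exons between them close into a ring with no free end. A ring with no free end is not a substrate for exonucleases, and circRNAs are known as long-lived RNAs that can build up in cells that divide slowly or not at all. A single gene can give several rings that use the same splice site on one side, and circBase is a public catalogue that gives each known ring an identifier. The circRNAs described here are those with a circBase identifier (the mmu_circ names below), a genomic span from 1000 bp to under 50000 bp, and a start and an end that no other listed circRNA on the same chromosome and strand used. Of 3869 listed circRNAs, 1002 (25.9%) met this rule. The rule uses the name and the coordinates, not the measured levels of the members. Ends are compared among listed circRNAs only, so it depends on which circRNAs were detected and listed.

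The cells were stromal vascular cells of brown adipose tissue from C57BL/6 mice 6 weeks old, which the labels call BAT preadipocytes and whose tissue of origin they call inguinal BAT. No genotype or transgene is named. At day 0 the cells were proliferating in growth medium. Day 4 cells had been kept for 4 days with insulin, dexamethasone and 3-isobutyl-methylxanthine, and day 8 cells had then been kept for another 4 days with insulin and the thyroid hormone T3. Each day had 2 libraries of total RNA from which ribosomal and linear RNA had been removed. The study asked how circRNAs differ along brown adipogenesis. Nothing in the labels tells whether libraries of 1 day are separate cultures, so p-values here measure only how much these samples spread, which may be technical. Markers of brown fat cells could not be checked, because the table holds no linear RNA.

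The values are CPM, counts scaled so that each library sums to 1000000 over the listed circRNAs. Every value was a whole multiple of 1 step in its library, and no non-zero value was below 2 steps. A step was read as 1 back-splice read, worth 21.9 to 24.8 CPM, which gave 40384 to 45733 reads per library. Each listed circRNA had a non-zero value in both libraries of 1 day or more, a selection that raises the likeness of libraries of a day and the contrast between days for circRNAs of few reads. A value listed at 0 may stand for 1 read. A higher level in a bulk sample can come from more cells that hold the RNA or from more RNA per cell, and these cannot be told apart.

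Circles with unique ends, like the listed circRNAs at large, were mostly of low abundance. The mean of the members over the 6 libraries had a median of 108 CPM, quartiles of 62.9 and 220 CPM, and a maximum of 13243 CPM. Over the whole table the median was 103 CPM, with quartiles of 55.5 and 226 CPM. The median member had a mean of 4.5 reads per library, and 364 members (36.3%) had 10 or more reads in at least 2 libraries, against 35.4% of all listed circRNAs. These are called well-covered below. A count of 10 reads has an exact Poisson 95% interval of 4.80 to 18.4 reads, and a count of 2 reads one of 0.242 to 7.22, which cover counting error only. Of the 1002 members, 352 (35.1%) were above 0 in every library, against 32.3% of the table, and 79 were above 0 in only 2 libraries. The 8 most abundant members held 19.8% of all CPM on the members, and the top 100 held 50.9%.

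Along the genome the members were spread over 20 chromosomes, from 20 members on chromosome 19 to 90 on chromosome 2, with 506 on the plus strand and 496 on the minus strand. The X chromosome had 30. The median span was 5850.5 bp, with quartiles of 2662.5 and 12028.5 bp. Having a unique start and end does not keep 2 rings from overlapping, yet 914 members (91.2%) overlapped no other listed circRNA on their strand. The share over the whole table was 46.5%, but circRNAs that share an end overlap by definition, so part of that gap is set by the rule. Of the other 88 members, 69 overlapped another circRNA in part, 11 lay inside one and 8 contained one. No member had an end within 5 bp of that of another listed circRNA. At the lower limit of span, mmu_circ_0000876 (1000 bp, mean 47.2 CPM) was a member and mmu_circ_0014735 (977 bp, 50.3 CPM) was not. At the upper limit, mmu_circ_0013932 (48990 bp, 61.5 CPM) was a member and mmu_circ_0004734 (53570 bp, 97.9 CPM) was not.

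The members held a similar share of the listed CPM on each day. It was 24.0% and 24.1% in the libraries of day 0, 24.0% and 23.4% at day 4, and 22.9% and 23.2% at day 8. The day 8 libraries were the lowest, by about 1 percentage point from day 0, and did not overlap those of day 0 or day 4. The smallest p that an exact permutation test (two-sided) of 2 libraries against 2 can give is 0.333, and that was its value for day 8 beside either earlier day. For day 4 beside day 0 it was 0.667.

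More members were above 0 at day 8 than before. In the day 0 libraries 730 and 768 members were above 0, in those of day 4 763 and 718, and in those of day 8 798 and 810. As shares the day means were 74.8% ± 2.68 (SD, n = 2) at day 0, 73.9% ± 3.18 (n = 2) at day 4 and 80.2% ± 0.847 (n = 2) at day 8, and only the day 8 libraries stood clear of the others (exact permutation p = 0.333 against each earlier day). The number of members with at least 10 reads did not follow that order: it was 274 and 266 at day 0, 278 and 248 at day 4, and 257 and 256 at day 8. Over the whole table the share above 0 was 76.7% and 78.1% in the day 8 libraries and 68.8% to 73.7% in the other 4, so the step at day 8 was not limited to the members. Listed above 0 on a single day were 19 members at day 0, 19 at day 4 and 41 at day 8, with medians of 8, 8 and 7 reads over both libraries and never more than 16. As shares these were 1.90%, 1.90% and 4.09% of members, beside 3.98%, 3.15% and 5.48% of the whole table.

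Circles with unique ends were seen less often than catalogued circRNAs of the same span range that share 1 end with another listed circRNA (854 circRNAs), and more often than uncatalogued circRNAs of that range (1176 circRNAs). The share above 0 was lower in the members than in those with 1 shared end in each of 6 libraries, with a mean difference, members minus the others, of -6.35 percentage points (range -9.14 to -3.24). It was higher than in the uncatalogued circRNAs in each of 6 libraries, by a mean of 13.2 points (10.8 to 15.5). An exact two-sided sign-flip test over libraries gave p = 0.03125 for each, the smallest that 6 libraries allow (0.03125 after Benjamini-Hochberg adjustment over the 2 tests). It treats libraries of the same day as independent. The same circRNAs are measured in every library, so the test covers only how steady the difference is over libraries. The median level followed the same order. In the first day 0 library it was 116 CPM for the members, 162 CPM for circRNAs with 1 shared end and 69.6 CPM for the uncatalogued. Whether a circRNA with the same end is listed depends on its detection. Part of the contrast with shared ends may thus be set by the rule, which was not tested.

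**Figure D1:**
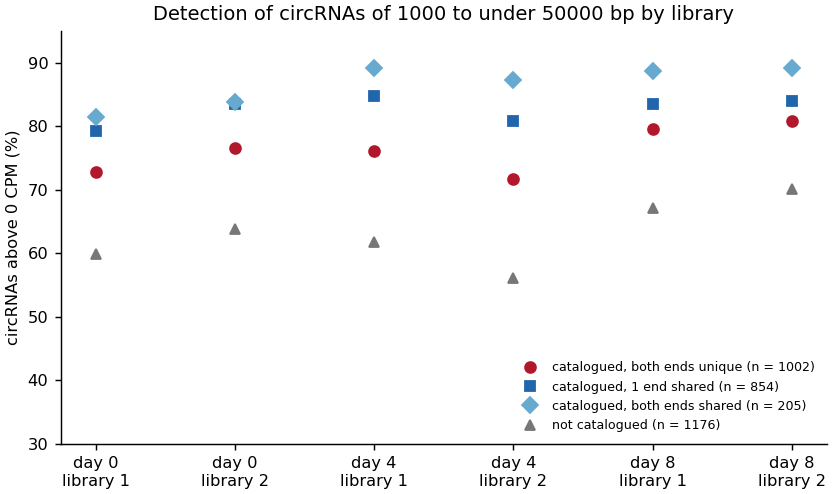
Share of circRNAs of 1000 to under 50000 bp listed above 0 CPM (y axis, percent, starting at 30) in each of the 6 libraries (x axis), for 4 classes defined by circBase identifier and shared ends. The members (red circles, 71.7% to 80.8%) lie below both classes with shared ends and above the uncatalogued circRNAs in every library.

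Among the members, the longest circles had the lowest median level. Members from 1000 to under 2500 bp (231) had a median of 125 CPM and 41.1% of them were above 0 in all libraries. The median was 110 CPM from there to under 5000 bp (214 members), 106 CPM to under 10000 bp (243) and 106 CPM to under 20000 bp (206). It was 82.0 CPM at 20000 bp and above, where 27 of 108 members were above 0 in all libraries. Over all listed circRNAs the medians of these classes, from short to long, were 98.9, 108, 104, 104 and 99.1 CPM. The longest class was not the lowest there. Spearman's rho of span with mean CPM was -0.10 across the 1002 members, which are measured in the same libraries. Genomic span counts introns that the ring itself may lack, so it is not the length of the RNA.

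The 2 most abundant members stood above all other members in every library. At the top was mmu_circ_0001052 (chr2:104310906-104312004, minus strand, mm9), at 12854 and 12785 CPM at day 0, 16640 and 13768 at day 4, and 11024 and 12389 at day 8. Its highest library was at day 4, the day 8 libraries were below both day 0 libraries, and no comparison called it (limma adjusted p from 0.407 to 0.961). Next among the members was mmu_circ_0011707 (chr4:58188803-58192579, minus strand), at 7611 and 7869 CPM, 13797 and 13743 CPM, and 10877 and 9996 CPM in the libraries of days 0, 4 and 8. These are the only members among the 10 most abundant of all listed circRNAs. The other 6 of the top 8 were mmu_circ_0001017, mmu_circ_0000819, mmu_circ_0001614, mmu_circ_0000805, mmu_circ_0001335 and mmu_circ_0007399.

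Some well-covered members had much the same mean on each day. In all, 36 members had at least 20 reads in every library, and among them the ratio of the highest to the lowest day mean was smallest for mmu_circ_0014426 (chr7:87541815-87543814, minus strand), at 1.05. Its libraries read 928 and 726 CPM at day 0, 765 and 817 at day 4, and 661 and 924 at day 8. The days overlapped, and the spread within day 8 was wider than the range of the day means. Next came mmu_circ_0001614 (chr7:121202054-121203933, minus strand), with a ratio of 1.09 and libraries of 4455 and 3802, 4308 and 4086, and 4189 and 3482 CPM. The days again overlapped. For mmu_circ_0001665 (chr8:26088900-26092594, minus strand) the ratio was 1.13, and for mmu_circ_0002211 (chr10:42503248-42511097, plus strand) it was 1.20. Over the 354 well-covered members that were above 0 on every day, the median ratio was 2.04, with 173 (48.9%) within 2-fold and 301 (85.0%) within 4-fold. The highest day mean fell at day 0 in 34.1% of the 364 well-covered members, at day 4 in 32.4% and at day 8 in 33.5%.

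Differences between days were tested with limma on log2(CPM + 43.7), where 43.7 CPM, the lowest value above 0 in any library, is the pseudocount. Fold changes on this scale understate those of low members. All 3869 circRNAs were fitted together, and a circRNA is called when its Benjamini-Hochberg adjusted p is under 0.05. Across all members the median log2 difference was 0.00 from day 0 to day 4, 0.06 from day 0 to day 8 and 0.08 from day 4 to day 8, beside 0.00, 0.05 and 0.06 over the whole table. A total of 114 members (11.4%) were called in at least 1 comparison, beside 16.5% of all listed circRNAs, and 30 of the 114 were well-covered (8.24% of the well-covered members, beside 10.7% of all well-covered circRNAs).

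Between day 0 and day 4, the start and the end of the induction medium, a small set of circles rose and a smaller one fell. The limma fit called 51 members (5.09%), 28 higher at day 4 and 23 lower. Over the whole table it called 8.17%, with 3.95% higher and 4.21% lower, so members were called no more often than the listed circRNAs at large. Of the 51, 40 had 0 in both libraries of 1 of the days compared, and 38 had a mean under 10 reads. Among the well-covered members 10 rose and 4 fell, 2.75% and 1.10% of the 364, beside 3.07% and 1.46% of all well-covered circRNAs in the table. Of the 10, mmu_circ_0012260 was well-covered only through the day 4 libraries in which it is high. In mmu_circ_0000167, mmu_circ_0001180, mmu_circ_0002525 and mmu_circ_0010974, at least 1 day 0 library had fewer than 10 reads. They were well-covered only through days 4 and 8, both above day 0.

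A steep rise at day 4 was that of mmu_circ_0010974 (chr4:100080418-100084745, plus strand). It went from 116 and 387 CPM at day 0 to 2034 and 2699 at day 4, and stood at 980 and 1303 at day 8. All later libraries lay above both day 0 libraries, and the log2 difference was 3.22 (SE 0.50, adjusted p = 0.0135). Its size rests on the uneven day 0 libraries: it was 2.49 without the first and 3.96 without the second. Close to it was mmu_circ_0004450 (chr13:110530595-110562888, plus strand), with 255 and 266 CPM at day 0, 2034 and 2352 at day 4, and 759 and 758 at day 8. The 3 days did not overlap, and the day 4 rise was 2.92 on the log2 scale (SE 0.20, adjusted p = 0.00145).

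Further along the same strand, 161187 bp past its end, lay mmu_circ_0004451 (chr13:110724076-110729569). Its libraries read 557 and 702 CPM at day 0, 1793 and 2130 at day 4, and 686 and 782 at day 8, so both libraries of day 4 stood above the other 4. The rise at day 4 was 1.62 (SE 0.22, adjusted p = 0.00881). Also highest at day 4 was mmu_circ_0007399 (chr18:56967318-56971729, minus strand), with 1833 and 1525, 4023 and 3516, and 1984 and 2108 CPM at days 0, 4 and 8, a rise of 1.20 (SE 0.18, adjusted p = 0.0135). The second most abundant member, mmu_circ_0011707, rose by 0.88 (SE 0.15, adjusted p = 0.0186), with no overlap between days.

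Other circles rose by day 4 and stayed up. One was mmu_circ_0002861 (chr11:16781467-16783616, plus strand), at 394 and 315 CPM at day 0, 1378 and 1436 at day 4, and 1911 and 2061 at day 8. The days did not overlap, and the day 4 difference was 1.92 (SE 0.20, adjusted p = 0.00302). Another, mmu_circ_0002525 (chr10:87863397-87877343, plus strand), read 69.6 and 145 CPM, then 503 and 619, then 514 and 403. It rose by 2.07 (SE 0.39, adjusted p = 0.0305), and with only well-covered circRNAs tested its adjusted p was 0.065. It overlaps the listed circRNA mmu_circ_0002527 in part.

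In addition, 3 well-covered circles listed at 0 in both day 0 libraries were called higher at day 4. These were mmu_circ_0000167 (chr10:55843317-55871659, minus strand), at 262 and 322 CPM at day 4 and 441 and 450.1 at day 8 (adjusted p = 0.0165 for day 4), and mmu_circ_0001180 (chr4:6750052-6769573, minus strand), at 219 and 198 CPM and then 612 and 403 (adjusted p = 0.0429). The other was mmu_circ_0012260 (chr5:142411998-142413675, plus strand), at 284 and 272 CPM and then 294 and 166 (adjusted p = 0.0442). No fold is given for them, since a value listed at 0 may hide a read. For mmu_circ_0001180 the adjusted p was 0.0611 when only well-covered circRNAs were tested.

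The 4 well-covered members that fell by day 4 started at 872 CPM or more. The deepest fall was in mmu_circ_0013775 (chr7:118741317-118742637, minus strand), from 1415 and 896 CPM to 262 and 322 at day 4, with 343 and 450.1 at day 8. Day 0 lay above all later libraries, and the log2 difference was -1.76 (SE 0.31, adjusted p = 0.023). The circle mmu_circ_0005268 (chr14:52614555-52616082, plus strand) went from 1137 and 1283 CPM to 372 and 396 and back to 710.5 and 592. It dipped at day 4 by -1.50 (SE 0.23, adjusted p = 0.0135).

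Similar in shape was mmu_circ_0000400 (chr12:83441649-83443486, plus strand), at 951 and 872, 284 and 396, and 514 and 663 CPM, with a difference of -1.28 (SE 0.27, adjusted p = 0.0429). In mmu_circ_0011506 (chr4:16079064-16085577, minus strand) the libraries read 3968 and 2930 CPM at day 0, 1640 and 1783 at day 4, and 833 and 782 at day 8. Its days did not overlap, and the first step was -0.93 (SE 0.20, adjusted p = 0.0442). Both of these falls missed the threshold when only well-covered circRNAs were tested (adjusted p = 0.0871 and 0.0636), a fit that called 12 members, 3.30% of those tested beside 3.65% of the table.

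Without any 1 of the 6 libraries, the day 8 ones included, the limma fit called 0 members between day 0 and day 4, and the lowest adjusted p over all circRNAs was 0.0637 to 0.125. With all libraries, 183 of the 1002 members had an unadjusted limma p under 0.05, beside 850 of all 3869 listed circRNAs.

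**Figure D2:**
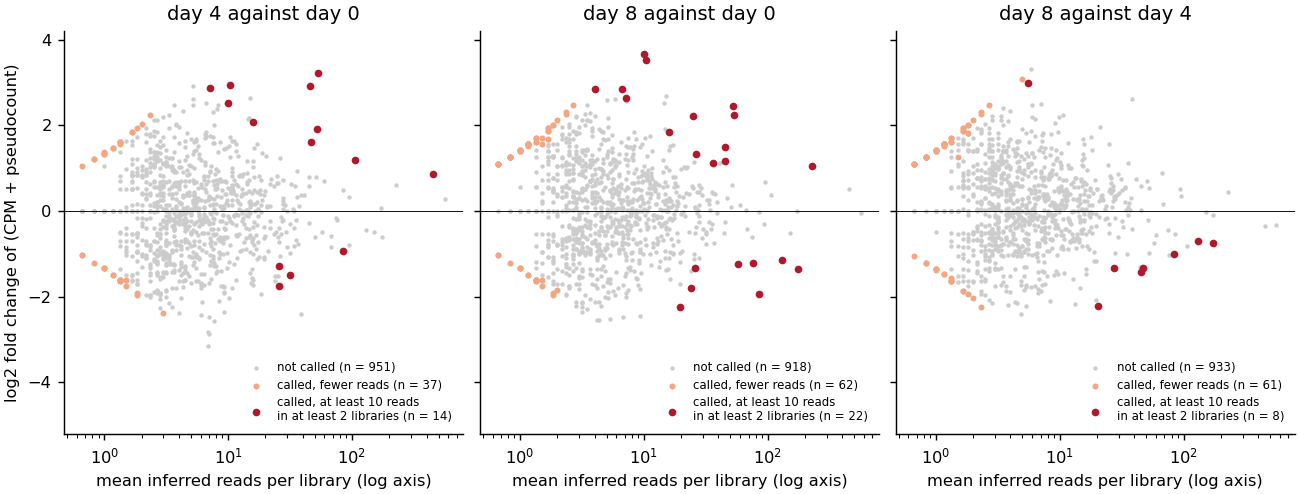
The log2 difference of (CPM + 43.7) between days (y axis) against the mean inferred reads per library (x axis, log) for the 1002 members, 1 panel per comparison. Called members with few reads (orange) lie along the outer edges of the cloud at the left, where a circRNA was at 0 in both libraries of a day, and the called members that are well-covered (red, 10 or more reads in at least 2 libraries) number 14, 22 and 8.

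Between day 0 and day 8, the whole course of differentiation, more circles were called than in either shorter interval, and more were higher than lower. The fit called 84 members (8.38%), 57 higher at day 8 and 27 lower, beside 12.4% of the whole table (7.52% higher, 4.88% lower). As before most were thinly covered: 67 of the 84 had 0 in both libraries of 1 of the days. Of the well-covered members 14 rose and 8 fell, 3.85% and 2.198%, beside 5.48% and 2.63% of all well-covered circRNAs. Of the 14, 3 (mmu_circ_0001180, mmu_circ_0001182 and mmu_circ_0008436) were well-covered only through the day 8 libraries in which they are high. In mmu_circ_0000167, mmu_circ_0012260, mmu_circ_0002525 and mmu_circ_0010974, at least 1 day 0 library had fewer than 10 reads. They were well-covered only through days 4 and 8, both above day 0.

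Of the circles that had risen at day 4, mmu_circ_0002861 had the smallest adjusted p at day 8, 2.45 above day 0 (SE 0.20, adjusted p = 0.00127). The 2 circles mmu_circ_0000167 and mmu_circ_0001180, listed at 0 in both day 0 libraries, had adjusted p-values of 0.00545 and 0.00687 at day 8, and mmu_circ_0012260 one of 0.0436. The rise of mmu_circ_0004450 over day 0 was 1.49 (SE 0.20, adjusted p = 0.0058), that of mmu_circ_0010974 was 2.25 (SE 0.50, adjusted p = 0.0385, and 1.51 or 2.98 without the first or second day 0 library) and that of mmu_circ_0002525 was 1.85 (SE 0.39, adjusted p = 0.0343). For mmu_circ_0004451 the day 8 libraries overlapped those of day 0, with a difference of 0.31 (SE 0.22, adjusted p = 0.467).

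Day 8 added circles that had not been called at day 4. The circle mmu_circ_0000301 (chr11:84006581-84009189, plus strand) read 255 and 194 CPM at day 0, 525 and 248 at day 4, and 931 and 1374 at day 8. Day 8 stood clear of both earlier days, 2.23 above day 0 (SE 0.44, adjusted p = 0.024). The abundant mmu_circ_0001017 (chr2:48725809-48728993, plus strand) climbed from 3712 and 3584 CPM through 5751 and 5027 to 7497 and 6680. Its days did not overlap, and its rise at day 8 was 1.05 (SE 0.17, adjusted p = 0.0115).

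A pair of further circles was listed at 0 in both day 0 libraries. In mmu_circ_0001182 (chr4:9510959-9538085, minus strand) the later libraries read 175 and 248 CPM at day 4 and 269 and 261 at day 8 (adjusted p = 0.0303 for day 8). In mmu_circ_0008436 (chr1:174104074-174117591, plus strand) they read 43.7 and 0 CPM, then 294 and 237 (adjusted p = 0.0301). The first appeared at both later days, and the second almost wholly at day 8. Smaller rises, of 1.13 to 1.32, were called for mmu_circ_0008108, mmu_circ_0000454 and mmu_circ_0001675 (adjusted p = 0.045, 0.0481 and 0.0335). These 3 and mmu_circ_0002525 missed the threshold when only well-covered circRNAs were tested (adjusted p = 0.0758, 0.0655, 0.0597 and 0.0675).

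Among the 8 well-covered circles that fell over the whole course, several were lower at each later day, though not every step was called. The abundant mmu_circ_0000819 (chr17:80443834-80452981, minus strand) went from 5778 and 6635 CPM at day 0 to 3717 and 4111 at day 4 and 2278 and 2227 at day 8. Its days did not overlap, and the fall by day 8 was -1.34 (SE 0.16, adjusted p = 0.00333). The same shape held for mmu_circ_0001335 (chr5:34185761-34188916, plus strand), at 4269 and 4431, 2996 and 3194, and 1911 and 1753 CPM, with a difference of -1.13 (SE 0.15, adjusted p = 0.00554).

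For mmu_circ_0000860 (chr18:35312255-35314194, plus strand) the libraries read 1926 and 2010, 1203 and 1510, and 710.5 and 805 CPM, a difference of -1.23 (SE 0.19, adjusted p = 0.00997). The fall of mmu_circ_0011506 by day 8 was -1.93 (SE 0.20, adjusted p = 0.00185). The days of both were in falling order with no overlap. The deepest fall was that of mmu_circ_0007013 (chr17:75624496-75626581, plus strand), from 835 and 896 CPM through 284 and 495 to 196 and 94.8, a difference of -2.23 (SE 0.41, adjusted p = 0.019).

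The other 3 that fell by day 8 behaved less evenly. In mmu_circ_0010676 (chr3:50221910-50242837, minus strand) the libraries read 1021 and 1186, 394 and 248, and 196 and 355 CPM, so that days 4 and 8 overlapped, and the difference from day 0 was -1.80 (SE 0.39, adjusted p = 0.0377). In mmu_circ_0000723 (chr17:6137211-6139156, plus strand) they read 2599 and 2203, 1552 and 2575, and 857 and 1019 CPM. Its day 4 libraries overlapped day 0 and only day 8 stood apart, by -1.22 (SE 0.26, adjusted p = 0.0334). The fall of mmu_circ_0013775 from day 0 stood at -1.33 (SE 0.31, adjusted p = 0.0481). With only well-covered circRNAs tested, mmu_circ_0010676 and mmu_circ_0013775 missed the threshold (adjusted p = 0.058 and 0.0847), and 16 members were called, 4.40% of those tested beside 6.51% of the table.

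Without either library of day 0 or of day 8, which left 1 library in that day, no member stayed called between day 0 and day 8. Without either day 4 library calls were still made. The rises of mmu_circ_0010974, mmu_circ_0008436, mmu_circ_0008108 and mmu_circ_0000454 and the falls of mmu_circ_0010676 and mmu_circ_0013775 were not called with a pseudocount of 1 CPM (adjusted p = 0.0853, 0.0906, 0.0542, 0.0661, 0.0626 and 0.061).

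**Figure D3:**
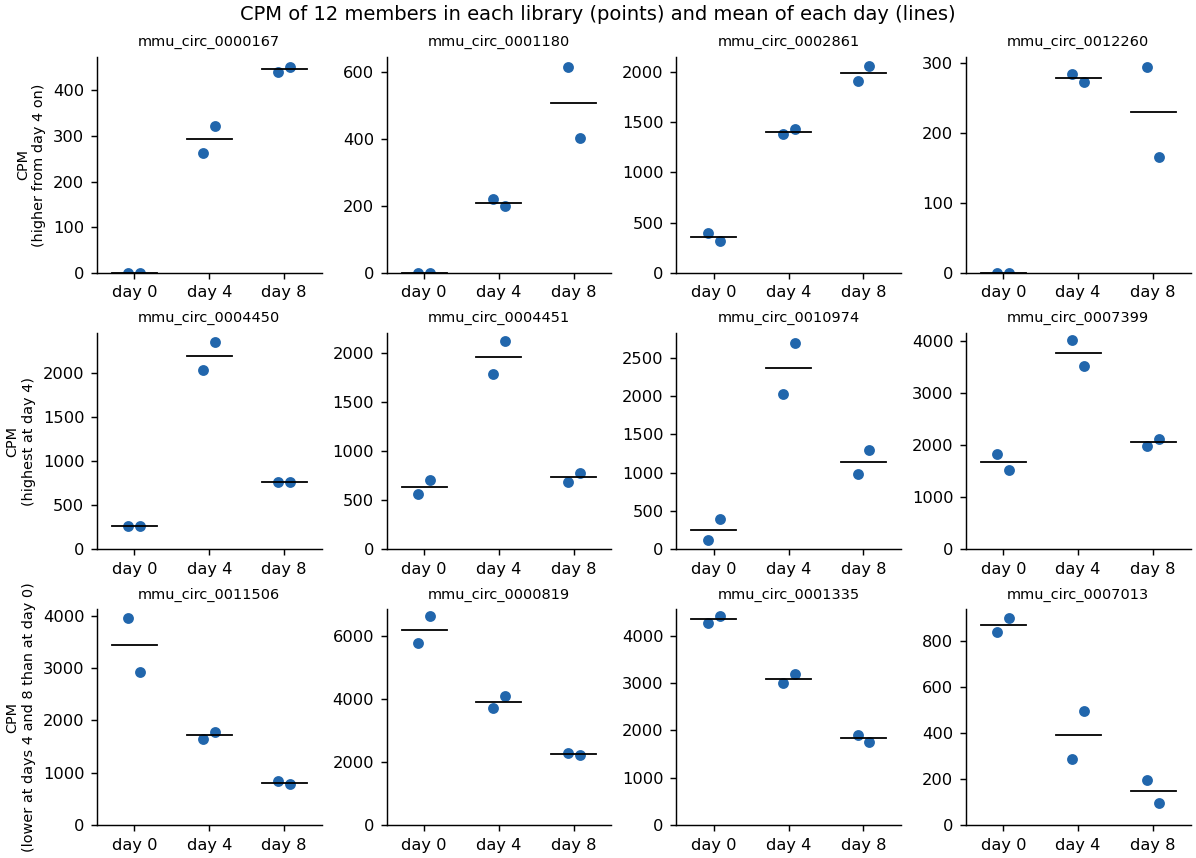
CPM (y axis, from 0, own scale in each panel) in each library (points) and the mean of each day (lines) for 12 members, by day (x axis). The top row shows members higher from day 4 on, the middle row members highest at day 4, such as mmu_circ_0004450 (255 and 266 CPM at day 0, 2034 and 2352 at day 4), and the bottom row members lower at days 4 and 8 than at day 0.

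Between day 4 and day 8, when induction medium gave way to insulin with T3, the well-covered circles that were called nearly all fell. The fit called 69 members (6.89%), 44 higher at day 8 and 25 lower, beside 9.49% of the table (6.05% higher, 3.44% lower). However, 62 of the 69 had 0 in both libraries of 1 of the days, the 44 higher ones included. Of the well-covered members 1 rose and 7 fell, 0.275% and 1.92%, beside 1.83% and 1.46% of all well-covered circRNAs. The member that rose was well-covered through the day 8 libraries alone, so its place among them rests on the day in which it is high.

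The deepest fall was in mmu_circ_0000028 (chr1:38110461-38142497, minus strand), at 441 and 291 CPM at day 0, 875 and 941 at day 4, and 147 and 166 at day 8. Its days did not overlap, and day 8 was the lowest, with a difference from day 4 of -2.21 (SE 0.31, adjusted p = 0.00714). The neighbours mmu_circ_0004450 and mmu_circ_0004451 fell back by -1.43 (SE 0.20, adjusted p = 0.0077) and -1.32 (SE 0.22, adjusted p = 0.0168). In mmu_circ_0001284 (chr4:136326871-136330559, minus strand) the first 2 days overlapped, at 882 and 654 and at 765 and 990.5 CPM, and day 8 was lower, at 269 and 355 CPM, a difference of -1.33 (SE 0.28, adjusted p = 0.0378).

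Of the circles whose levels had stepped down since day 0, 3 were called lower from day 4 to day 8. Of these only mmu_circ_0011506 had also been called from day 0 to day 4. That first step had a limma adjusted p of 0.0887 for mmu_circ_0000819 and 0.171 for mmu_circ_0001335. From day 4 to day 8 the differences were -0.997 for mmu_circ_0011506 (adjusted p = 0.03), -0.74 for mmu_circ_0000819 (adjusted p = 0.0467) and -0.70 for mmu_circ_0001335 (adjusted p = 0.047). The 1 well-covered member called higher was mmu_circ_0000152 (chr10:23518552-23525846, plus strand), at 92.8 and 96.9 CPM at day 0, 0 and 0 at day 4, and 367 and 237 at day 8 (adjusted p = 0.0451). It was above 0 at days 0 and 8 and at 0 at day 4, and it reached 10 reads at day 8 alone. Next in order were 3 members that missed the threshold: mmu_circ_0001497 (adjusted p = 0.0508), mmu_circ_0016305 (0.0546) and mmu_circ_0008436 (0.0733). Of these mmu_circ_0001497 and mmu_circ_0008436 were well-covered only through the day 8 libraries in which they are high. The libraries of mmu_circ_0001497 read 0 and 72.6 CPM at day 0, 0 and 0 at day 4, and 465 and 308 at day 8. The remaining circle, mmu_circ_0016305 (chrX:53896545-53908230, plus strand), read 348 and 387, 175 and 223, and 588 and 497 CPM at days 0, 4 and 8, with no overlap between days.

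None of the calls between day 4 and day 8 was made when only well-covered circRNAs were tested. There 0 of 364 members passed beside 1.02% of the table (limma, adjusted p of 0.0562 for mmu_circ_0004450 and for mmu_circ_0000028). In the limma fit of all circRNAs no member stayed called either without a library of day 4 or of day 8, which left 1 library in that day. Without either day 0 library calls were still made.

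The share of members called differed between classes of span, a description that was not tested. For day 8 against day 0, 14 of 108 members of 20000 bp or more (13.0%) were called higher and 2 (1.85%) lower, beside 10.3% and 2.18% of all listed circRNAs of that span. In the 4 shorter classes the share called higher was 3.70% to 6.06% of members, beside 5.85% to 7.63% of the table. The share called lower was 3.90% in the shortest class and 1.46% from 10000 to under 20000 bp, beside 5.30% and 4.29% of the table. For day 4 against day 0, 8 of the 108 longest members (7.41%) were called higher and 1 (0.93%) lower. The other classes had 1.87% to 2.60% higher, beside 1.63% to 3.12% of the table. The whole table had 8.71% higher and 2.02% lower among its longest class in that comparison, so the pattern was not limited to members. Of the 14 longest members called higher at day 8 against day 0, 4 were well-covered, beside 24 of 66 in the whole table.

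**Figure D4:**
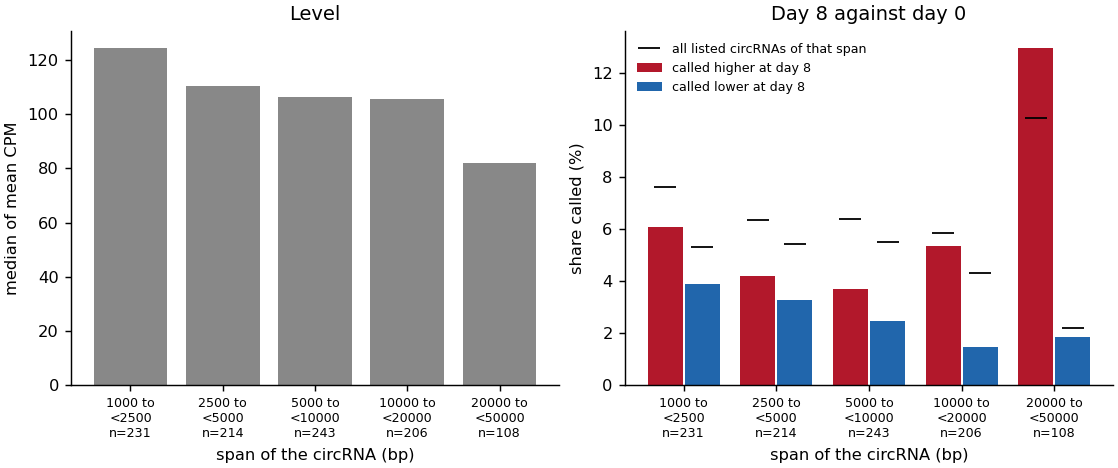
Left, the median of mean CPM of the members (y axis, from 0) in 5 classes of span (x axis, bp). Right, the percent of members called higher (red) or lower (blue) at day 8 against day 0, with black ticks for all listed circRNAs of that span, where members of 20000 bp or more have 13.0% higher and 1.85% lower.

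Members that lie near each other were compared, since neighbouring circles may come from 1 transcript. There were 143 adjacent pairs on the same strand within 200000 bp, and in 19 of them both members were well-covered. Over these 19 pairs, which share their libraries, Spearman's rho of the log2 differences of the 2 neighbours was 0.61 from day 0 to day 4, 0.30 from day 0 to day 8 and 0.26 from day 4 to day 8. The signs were alike in 15, 11 and 13 pairs. Some pairs share a member, such as mmu_circ_0001619, and some overlap, such as mmu_circ_0002211 and mmu_circ_0002214. Members that are not neighbours were not compared, so these values do not show an effect of distance. Of the 19 pairs, mmu_circ_0004450 and mmu_circ_0004451 alone were called together, both higher at day 4 than at day 0 and both lower at day 8 than at day 4. Libraries of the same day ranked the 1002 members alike to a moderate degree, with Spearman's rho of 0.621, 0.615 and 0.640 at days 0, 4 and 8, beside 0.457 to 0.562 between days, a gap to which the selection for detection in both libraries of a day contributes.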

How the data were processed

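Total RNA depleted of ribosomal and linear RNA was sequenced in 6 libraries, 2 for each of days 0, 4 and 8, per the labels' protocols. Per the submitters' processing notes, FastQC 0.11.9, HISAT2 2.2.0 and build mm9 were used, and which program called the circRNAs is not stated there. The authors deposited CPM per circRNA and library. Reads were inferred from the CPM steps (largest deviation from a whole number 2.52e-07 of a step), and no count model was run, because no value of 1 read occurs. Starts were raised by 1 to count from 1.

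CPM was divided by trimmed-mean-of-M-values factors (0.964 to 1.06) and log2(CPM + 43.7) was fitted in R 4.3.3 by limma 3.58.1 with eBayes and a trend of variance on mean level, and day as a factor over all 6 libraries. Benjamini-Hochberg adjustment covered all 3869 circRNAs, since requiring 2 libraries above 0 left out none. The procedure was tested on simulated data with an assumed spread, with changes at day 8 placed in circRNAs of 10 or more mean reads. For day 8 against day 0 it recovered 36% of 4-fold and 82% of 8-fold changes. It called 2 of 3077 unchanged circRNAs. The simulation applied the rule of detection in both libraries of a day, but no scaling factors. Its levels came from listed circRNAs only, so this count need not hold for the real calls. The exact permutation and sign-flip tests enumerated every arrangement, and Spearman's rho was computed with scipy 1.17.1. Fits that left out a library, or used 2 days, kept circRNAs above 0 in at least 2 of the libraries used, and a lone library was assumed to vary like the other days. Alternatives were other scalings, a pseudocount of 1 CPM, only circRNAs with 10 or more reads in at least 2 libraries, no filter, the replicate number as a block, only the days compared, other limits of span and end matching, and each library left out.

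Members were named by a rule: per comparison and direction, up to 6 with the largest fold change among called members whose days did not overlap and that had 10 or more reads in at least 2 libraries, up to 3 uncalled ones by smallest p where fewer than 3 were called, the 8 most abundant and the 4 steadiest with at least 20 reads in every library. Others that pass the rule beyond the first 6 are named after their values were seen. The members and lists were chosen with earlier results of these data known. Gene lists for host genes were not used here, because the reference at hand is GRCm38 and not mm9, so host genes, exons and sequences were not analysed.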

Additional observations from a re-analysis of the deposited data

How the results depend on the processing

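The number of called members stayed within 1.5 times its main value (51, 84 and 69 for day 4 against day 0, day 8 against day 0 and day 8 against day 4) under median-of-ratios scaling (48, 85 and 67), no scaling (49, 83 and 70), a pseudocount of 1 CPM (52, 77 and 70) and no filter. Over all 3869 circRNAs the main fit called 316, 480 and 367. Median-of-ratios scaling gave 311, 481 and 359, no scaling 314, 477 and 370, and the pseudocount of 1 CPM 334, 448 and 364. Testing only circRNAs with 10 or more reads in at least 2 libraries gave 12, 16 and 0 of 364 members, beside 50, 89 and 14 of 1368 circRNAs. Fitting only the days compared gave 105 of 887, 149 of 946 and 134 of 933 members tested. In those fits 509 of 3377, 746 of 3575 and 603 of 3501 circRNAs were called. The cause was not tested. With each library left out in turn the counts ranged from 0 to 0, from 0 to 94 and from 0 to 77. With that read filter and each library left out, an alternative chosen after seeing the data, they were 0 to 4, 0 to 16 and 0. With the replicate number as a block the counts were 46, 77 and 63, and 19 of the 47 named values missed the threshold: at day 4 mmu_circ_0012260, mmu_circ_0001180, mmu_circ_0002525, mmu_circ_0000400 and mmu_circ_0011506; at day 8 against day 0 mmu_circ_0012260, mmu_circ_0002525, mmu_circ_0013775, mmu_circ_0001182, mmu_circ_0008436, mmu_circ_0008108, mmu_circ_0000454, mmu_circ_0001675 and mmu_circ_0010676; and from day 4 to day 8 mmu_circ_0011506, mmu_circ_0000819, mmu_circ_0001335, mmu_circ_0000152 and mmu_circ_0001284. Over all 3869 circRNAs the fit with this block called 304, 453 and 351. The labels do not say whether the replicate numbers pair samples of different days. Over circRNAs, the deviations of replicate 1 from replicate 2 correlated at -0.02 (day 4 with day 0), -0.02 (day 8 with day 0) and -0.02 (day 8 with day 4). With so few reads per circRNA, these values cannot show whether a pairing exists. Members of 2000 to under 30000 bp held 17.4% of the listed CPM beside 23.6% for the full range, and there were 782 of them. The share above 0, and its sign against circRNAs with 1 shared end (-6.91 points at 2000 to under 30000 bp), held under both other member rules, and treating ends within 5 bp as shared removed no member. Of 47 named values none changed sign. With median-of-ratios scaling mmu_circ_0011506 at day 4, mmu_circ_0013775 at day 8 and mmu_circ_0001284 between days 4 and 8 missed the threshold, and without scaling mmu_circ_0008108 and mmu_circ_0000454 did. With only the days compared, the calls at day 8 of mmu_circ_0010974 (adjusted p = 0.0631), mmu_circ_0002525 (0.0584), mmu_circ_0008108 (0.0509) and mmu_circ_0000454 (0.0526) and that of mmu_circ_0001335 between days 4 and 8 (0.056) were lost, all by limma. The call of mmu_circ_0000152 was lost with a pseudocount of 1 CPM (limma adjusted p = 0.0648). The median member had 4.5 reads per library in 2 libraries a day, and the part of read depth in what was not called was not tested.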
